A study of Mus musculus with 6 samples.

Results

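The genes described here are 34 genes that mark macrophages, monocytes and other leukocytes, taken as a fixed list of symbols from a table of 54146 genes measured by bulk RNA sequencing of mouse kidney. All 34 were found in the table, and 27 of them had enough reads to be tested. The list was not chosen from a threshold on these values, but it was chosen with earlier results of these data known. The samples were 2 kidney libraries from G2APOL1 mice, 2 from G0APOL1 mice and 2 from WT mice. APOL1 is a human gene that mice lack, G0 is its reference form and G2 is a form linked to kidney disease risk. The design text puts the prefix EC before both transgenic genotypes without spelling it out, and its driving promoter or cell type is not given in these sources. All 3 groups, WT included, lost 1 kidney to surgery when 6 weeks old and ate chow with 4% salt from then on, so no group without surgery and salt stands beside them. The age at collection is not given in these sources either. The labels give all 6 libraries the same batch number and do not say whether libraries of the same group are from different mice, so p-values measure only the spread between these libraries, which may be technical.

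Resident macrophages lie between the tubules of the kidney and depend on signalling through the receptor encoded by Csf1r, while monocytes arrive from the blood through chemokine receptors such as the one encoded by Ccr2. The transcription factor PU.1, encoded by Spi1, drives the myeloid programme and binds many of the genes listed here. After loss of renal mass and under salt loading, macrophage and T cell numbers in the kidney are known to change, which is why leukocyte genes are commonly read in such models. In bulk RNA, fewer cells of a type and less RNA per cell cannot be told apart.

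To show what a PU.1 motif in these genes looks like, the promoters of the members were searched for the letters GAGGAAGT on either strand. RefSeq promoter sequences (GRCm38.p6, 250 bases before to 50 bases after the start) were matched for 26 member genes, with 31 promoters between them. The letters were present in promoters of 2 of these genes (7.69%), against 997 of 27025 genes with a promoter in the same table (3.69%). By promoter, 2 of 31 (6.45%) held them, against 1052 of 32851 promoters of this length (3.2%). Both are shown 5′ to 3′ on the strand of the gene, with the motif in capitals as ACTTCCTC, its reverse complement. The first is that of Ctss at chr3:95526536-95526835, plus strand, where the motif begins 2 bases before the start. The second is that of Cd53 at chr3:106790100-106790399, minus strand, where it begins 6 bases after the start.
Ctss promoter: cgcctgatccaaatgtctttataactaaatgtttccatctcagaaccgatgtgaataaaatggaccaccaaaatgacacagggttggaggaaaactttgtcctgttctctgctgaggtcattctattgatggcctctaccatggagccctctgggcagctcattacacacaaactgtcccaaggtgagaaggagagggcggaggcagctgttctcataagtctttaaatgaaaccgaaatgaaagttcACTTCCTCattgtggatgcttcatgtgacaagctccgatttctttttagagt
Cd53 promoter: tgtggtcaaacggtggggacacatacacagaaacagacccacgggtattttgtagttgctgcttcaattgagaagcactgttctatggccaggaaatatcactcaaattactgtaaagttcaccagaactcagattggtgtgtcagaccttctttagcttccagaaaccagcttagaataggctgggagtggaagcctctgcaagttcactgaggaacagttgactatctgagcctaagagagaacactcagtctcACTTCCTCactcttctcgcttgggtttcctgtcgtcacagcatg
A match of letters is a description of the sequence and does not show binding, and 2 genes are too few to read a difference from. The values of Ctss and Cd53 are given with their groups of genes below.

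Libraries held between 8490396 and 11800932 counts, and the members took between 0.0184% and 0.0426% of them. Between 27 and 31 of the 34 members had at least 1 count in a library. Levels are given as CPM, the usual depth-scaled read count, here after TMM scaling between libraries, and 3 counts correspond to between 0.257 and 0.355 CPM depending on the library. The share of counts from mitochondrial genes was 21.1% in WT replicate 2 and between 12.6% and 15.9% in the other 5 libraries. The macrophage markers Adgre1, Csf1r and Cd68 had counts in all 6 libraries, and so did the proximal tubule markers that define kidney cortex.

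Fewer counts of leukocyte genes were found in both transgenic groups than in WT. Summed over all 34 members, the level was 200 and 185 CPM in G2APOL1 kidneys and 203 and 191 CPM in G0APOL1 kidneys, against 280 and 410 CPM in WT kidneys. The 4 transgenic libraries lay close together and below both WT libraries, while the 2 WT libraries lay far apart. Csf1r alone made up a large share of these sums and differed little between groups. Without it the sums were 124 and 112 CPM in G2APOL1 kidneys and 124 and 107 CPM in G0APOL1 kidneys, against 198 and 319 CPM in WT kidneys. A large part of the remaining gap to WT replicate 1 lay in Lyz2 and Cd14. Lyz2 stood between 13.6 and 23.5 CPM in the transgenic libraries, against 49.8 and 53.8 CPM in WT. Cd14 stood between 3.19 and 5.66 CPM in the transgenic libraries, against 18.9 and 15.4 CPM in WT.

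**Figure D1:**
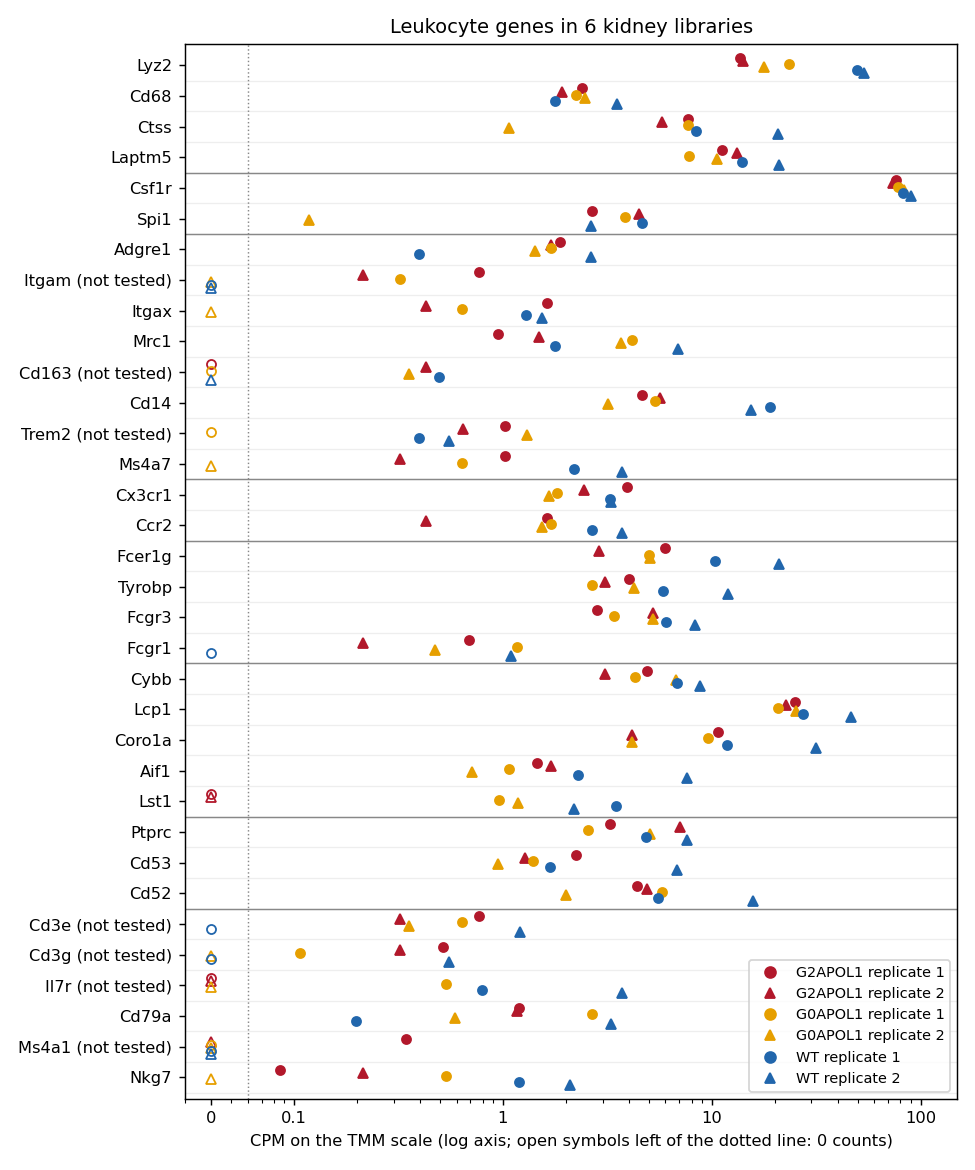
Level of each of the 34 leukocyte genes in each library, as CPM on a log axis, with genes ordered by role and 1 symbol per library (circle for replicate 1, triangle for replicate 2, open symbols for 0 counts). Lyz2 and Cd14 show all 4 transgenic libraries well below both WT libraries, Csf1r shows all 6 libraries close together, and WT replicate 2 is the rightmost symbol for 24 of 34 genes.

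In G2APOL1 against WT, 4 of the 27 members tested were lower at an adjusted p under 0.05 (edgeR's quasi-likelihood F test, Benjamini-Hochberg over all 14386 genes tested), and 0 were higher. Over all genes tested, 3.62% were called lower and 4.57% higher in this comparison. Of the 4, Lst1 passed the low-count filter only with both WT libraries, so that 3 of the 23 members that did not depend on WT in this way were called. In G0APOL1 against WT, 2 members were called lower and 0 higher, where 3.68% of all genes tested were called lower and 4.48% higher. Both members called in G0APOL1, Lyz2 and Cd14, were also called in G2APOL1, but the 2 comparisons share the same WT libraries. An unadjusted p under 0.05, in either direction, was found for 7 of 27 members in G2APOL1, where 22.6% of all genes tested had one, and for 10 of 27 in G0APOL1, where 22.5% had one. In G2APOL1 the share of members was thus near that of all genes.

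The median log2 fold change over the 27 members tested was -1.11 in G2APOL1 against WT, with 26 below 0, where the median of all genes was -0.04. In G0APOL1 against WT it was -0.98, with 25 below 0, where the median of all genes was 0.02. With a gene at 0 counts in a group set to its bound, the medians were the same. These medians rest in part on the low-count filter, since 4 of the 27 (Itgax, Ms4a7, Lst1 and Nkg7) passed only with both WT libraries. Over the other 23 the median was -0.96 in G2APOL1, with 22 below 0, and -0.91 in G0APOL1, with 21 below 0. Of these 23, 22 had at least 2 transgenic libraries over the filter's minimum of 1.05 CPM. The size also depended on 1 library. Without WT replicate 2 the median was -0.37 in G2APOL1 against WT, with 21 below 0, and -0.71 in G0APOL1 against WT, with 22 below 0. Leaving out WT replicate 1 instead gave -1.57 in G2APOL1 and -1.19 in G0APOL1.

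By groups that do not overlap, 18 of the 27 members tested lay lower in both G2APOL1 libraries than in both WT libraries and 0 lay higher, against 28.1% of all genes tested lower and 27.1% higher. In G0APOL1 against WT, 18 also lay lower and 0 higher, against 24.3% of all genes lower and 25% higher. In all 4 transgenic libraries together, 15 of the 27 were below both WT libraries, where 17.6% of all genes were. Over all 34 members 16 were, with Il7r as the untested one. These counts include members that passed the filter only with both WT libraries. Over the 23 others, 15 lay lower in G2APOL1, 14 in G0APOL1 and 12 in all 4 transgenic libraries.

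**Figure D2:**
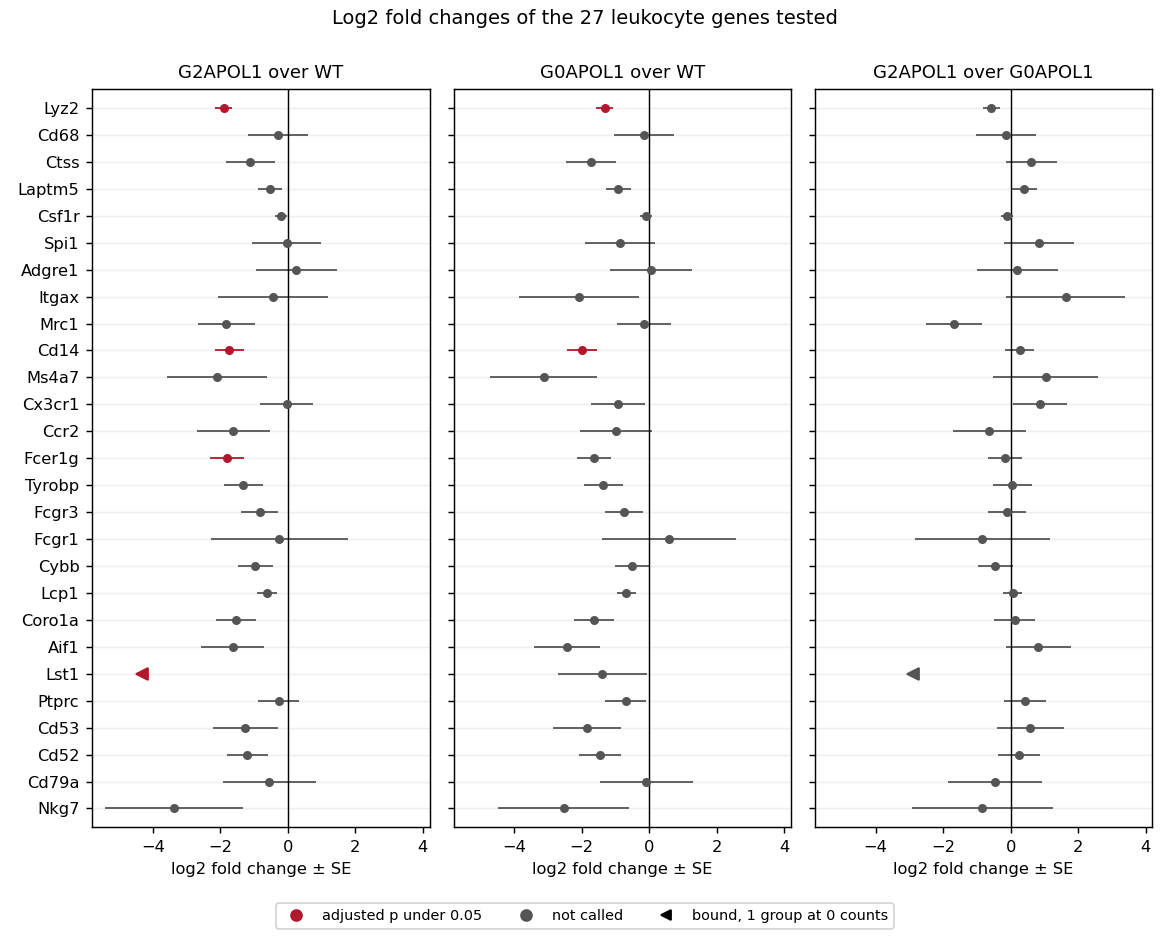
Log2 fold change with its standard error for the 27 leukocyte genes tested, in G2APOL1 over WT, G0APOL1 over WT and G2APOL1 over G0APOL1, with red for an adjusted p under 0.05 and a triangle for a bound against 0 counts. Most points lie left of 0 in both comparisons with WT (26 and 25 of 27), and they lie on both sides of 0 in G2APOL1 over G0APOL1 (12 of 27 below).

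Among the lysosomal genes, Lyz2 had the lowest adjusted p of the members in both comparisons with WT. Lyz2 encodes the lysozyme of macrophages and neutrophils, an enzyme that breaks bacterial cell walls (chr10:117277331-117282321, minus strand, GRCm38). Its level was 13.6 and 14.1 CPM in G2APOL1 kidneys and 23.5 and 17.9 CPM in G0APOL1 kidneys, against 49.8 and 53.8 CPM in WT kidneys. Replicates agreed closely and no 2 groups overlapped. Lyz2 averaged 13.9 ± 0.333 CPM in G2APOL1, 20.7 ± 3.98 CPM in G0APOL1 and 51.8 ± 2.87 CPM in WT (SD, n = 2 each). On the log2 scale it fell by 1.90 ± 0.26 (SE) in G2APOL1 against WT (edgeR adjusted p = 0.00104), and this call held in each alternative tried. In G0APOL1 against WT it fell by 1.32 ± 0.26 (edgeR adjusted p = 0.00657), a call that was lost without G0APOL1 replicate 2 (-1.13, adjusted p = 0.06). Lyz2 has a near-identical neighbour, Lyz1, at 95.81% identity, with at most 12 counts in any library. With counts of both summed, Lyz2 stood at -1.88 in G2APOL1 and -1.28 in G0APOL1.

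The other lysosomal members did not pass the test with all 6 libraries and the filter on low counts. Ctss, which encodes the cathepsin that trims the invariant chain for antigen presentation, had 7.72 and 5.77 CPM in G2APOL1, 7.69 and 1.06 CPM in G0APOL1, and 8.43 and 20.8 CPM in WT. Both transgenic groups lay below WT, but the gap between the 2 WT libraries was wider than that between the group means, and the log2 fold changes were -1.11 ± 0.73 in G2APOL1 and -1.72 ± 0.75 in G0APOL1. In G0APOL1 the value of Ctss rested on single libraries, at -3.81 without G0APOL1 replicate 1 (adjusted p = 0.0206), -0.91 without G0APOL1 replicate 2 and -0.92 without WT replicate 2. It also passed with no low-count filter (adjusted p = 0.0084). Laptm5, a lysosomal membrane protein of blood cells, had 11.1 and 13.1 CPM in G2APOL1, 7.79 and 10.6 CPM in G0APOL1, and 13.9 and 21.1 CPM in WT. Both transgenic groups again lay below WT, at -0.53 ± 0.37 in G2APOL1 and -0.92 ± 0.37 in G0APOL1. Cd68, the lysosomal glycoprotein used to stain macrophages, stood between 1.78 and 3.52 CPM in all 6 libraries with overlapping groups, and its log2 fold change was -0.29 ± 0.89 in G2APOL1 and -0.16 ± 0.89 in G0APOL1.

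The receptor for the growth factors CSF1 and IL-34, on which macrophages depend, is encoded by Csf1r, which did not pass in either comparison. It had 76.1 and 73.9 CPM in G2APOL1, 78.2 and 83.1 CPM in G0APOL1, and 82.0 and 90.2 CPM in WT. The whole range over 6 libraries was narrow, and the log2 fold changes were -0.20 ± 0.18 in G2APOL1 and -0.09 ± 0.18 in G0APOL1 (edgeR adjusted p = 0.569 and 0.832). Per kb of exon, Csf1r averaged 12.99 CPM in G2APOL1, 14.0 CPM in G0APOL1 and 14.9 CPM in WT, while Lyz2 averaged 10.5 CPM per kb in G2APOL1, 15.7 in G0APOL1 and 39.4 in WT. Lyz2 thus stood below Csf1r in G2APOL1 and above it in WT. Of the exon bases of Csf1r, 15.1% are shared with Hmgxb3 on the opposite strand, a gene with between 25.6 and 32.7 CPM. These sources do not say whether counting used strand, so reads of the 2 genes in that stretch may not have been told apart. Spi1, which encodes PU.1, had 2.66 and 4.49 CPM in G2APOL1, 3.84 and 0.12 CPM in G0APOL1, and 4.66 and 2.64 CPM in WT. Its groups overlapped, and G0APOL1 replicate 2 lay below the level of 3 counts.

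Surface proteins of macrophages divided into Cd14, which was lower in both transgenic groups, and others with few counts. Cd14 encodes the co-receptor that hands bacterial lipopolysaccharide to TLR4, and it lies on chromosome 18. It had 4.63 and 5.66 CPM in G2APOL1 and 5.34 and 3.19 CPM in G0APOL1, against 18.9 and 15.4 CPM in WT. All 4 transgenic libraries were far below both WT libraries, and here WT replicate 2 was the lower of the WT pair. Cd14 averaged 5.15 ± 0.73 CPM in G2APOL1, 4.27 ± 1.52 CPM in G0APOL1 and 17.2 ± 2.52 CPM in WT (SD, n = 2 each). It fell by 1.74 ± 0.43 in G2APOL1 (edgeR adjusted p = 0.0267) and by 2.00 ± 0.44 in G0APOL1 (edgeR adjusted p = 0.0139) on the log2 scale. The call in G2APOL1 was lost without either G2APOL1 library or without WT replicate 1 (-1.57, adjusted p = 0.0725), and the call in G0APOL1 was lost without G0APOL1 replicate 2 (-1.67, adjusted p = 0.092).

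Ms4a7, a membrane protein of mature macrophages, had 1.03 and 0.32 CPM in G2APOL1 and 0.64 and 0 CPM in G0APOL1, against 2.18 and 3.74 CPM in WT. The transgenic libraries lay below WT, but the counts were too few to pass, at -2.095 ± 1.47 in G2APOL1 and -3.13 ± 1.58 in G0APOL1. Mrc1, the mannose receptor of tissue macrophages, had 0.94 and 1.496 CPM in G2APOL1, 4.16 and 3.67 CPM in G0APOL1, and 1.78 and 6.92 CPM in WT. G2APOL1 was below both other groups, while G0APOL1 lay between the 2 WT libraries. The log2 fold change of Mrc1 was -1.83 ± 0.84 in G2APOL1 against WT (edgeR adjusted p = 0.218), -0.15 ± 0.80 in G0APOL1 against WT and -1.68 ± 0.84 in G2APOL1 against G0APOL1 (edgeR adjusted p = 0.781). Adgre1, which encodes the F4/80 antigen that defines mouse macrophages, had 1.89 and 1.71 CPM in G2APOL1, 1.71 and 1.42 CPM in G0APOL1, and 0.40 and 2.64 CPM in WT. The 4 transgenic libraries lay between the 2 WT libraries, and the log2 fold changes were 0.25 ± 1.21 in G2APOL1 and 0.05 ± 1.21 in G0APOL1. Itgax, the CD11c integrin chain, had 1.63 and 0.43 CPM in G2APOL1, 0.64 and 0 CPM in G0APOL1, and 1.29 and 1.54 CPM in WT, with overlap between G2APOL1 and WT.

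Another 3 surface genes were below the filter. Itgam, the CD11b integrin chain of myeloid cells, had 0.77 and 0.21 CPM in G2APOL1, 0.32 and 0 CPM in G0APOL1, and 0 counts in both WT libraries. Its 11 counts in G2APOL1 against 0 in WT give a level at least 3.35-fold higher, with 3 counts over the group as the floor, and it was the only member besides Trem2 that lay higher in both G2APOL1 libraries than in both WT libraries. A predicted gene on the same strand shares 68.7% of its exon bases and had 0 counts in all 6 libraries, and its part in the counts of Itgam was not tested. Trem2, a lipid-sensing receptor, had 1.03 and 0.64 CPM in G2APOL1, 0 and 1.30 CPM in G0APOL1, and 0.40 and 0.55 CPM in WT. Cd163, the haemoglobin scavenger receptor, reached at most 0.50 CPM in any library.

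Both chemokine receptors of the list failed the test. Cx3cr1, the fractalkine receptor of resident macrophages and patrolling monocytes, had 3.94 and 2.46 CPM in G2APOL1, 1.81 and 1.66 CPM in G0APOL1, and 3.27 and 3.30 CPM in WT. The G0APOL1 libraries were the lowest 2, while G2APOL1 lay on either side of WT. Its log2 fold change was -0.03 ± 0.78 in G2APOL1 and -0.91 ± 0.80 in G0APOL1. Ccr2, the receptor for CCL2 on inflammatory monocytes, had 1.63 and 0.43 CPM in G2APOL1 and 1.71 and 1.54 CPM in G0APOL1, against 2.68 and 3.74 CPM in WT. Both transgenic groups were below WT without overlap, at -1.61 ± 1.09 in G2APOL1 and -0.98 ± 1.07 in G0APOL1 (edgeR adjusted p = 0.42 and 0.672).

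Fcer1g and Tyrobp encode the small adaptors that carry signals from Fc receptors and TREM receptors to the kinase SYK. Fcer1g (chr1:171229572-171234365, minus strand, GRCm38) had 6.00 and 2.88 CPM in G2APOL1 and 5.02 and 5.09 CPM in G0APOL1, against 10.4 and 21.1 CPM in WT. All 4 transgenic libraries were below both WT libraries, and WT replicate 2 stood far above WT replicate 1. On the log2 scale Fcer1g fell by 1.81 ± 0.50 in G2APOL1 (edgeR adjusted p = 0.0431), and it stood at -1.64 ± 0.50 in G0APOL1, which did not pass (edgeR adjusted p = 0.0647). With no low-count filter Fcer1g was called lower in G0APOL1 as well. The call in G2APOL1 was lost without WT replicate 2 (-1.20, adjusted p = 0.293), without either G2APOL1 library, with limma-voom (adjusted p = 0.0534) and in a fit of only the 4 libraries compared (adjusted p = 0.058). Tyrobp had 4.03 and 3.10 CPM in G2APOL1 and 2.67 and 4.26 CPM in G0APOL1, against 5.85 and 11.98 CPM in WT. It too lay below WT in all 4 transgenic libraries, at -1.32 ± 0.57 in G2APOL1 and -1.36 ± 0.57 in G0APOL1, and did not pass.

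Fcgr3, a low-affinity receptor for IgG, had 2.83 and 5.23 CPM in G2APOL1 and 3.42 and 5.20 CPM in G0APOL1, against 6.05 and 8.35 CPM in WT. Neither transgenic group overlapped with WT, but the log2 fold changes of -0.84 ± 0.56 in G2APOL1 and -0.74 ± 0.56 in G0APOL1 did not pass. Fcgr1, the high-affinity IgG receptor, stood between 0 and 1.17 CPM, with G0APOL1 replicate 1 highest and WT replicate 1 at 0.

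Lst1, a small membrane protein of leukocytes encoded in the MHC region (chr17:35185095-35188439, minus strand, GRCm38), passed the low-count filter through its WT libraries alone. It had 0 counts in both G2APOL1 libraries, where 3 counts would be 0.257 and 0.32 CPM, and 0.96 and 1.18 CPM in G0APOL1, against 3.47 and 2.20 CPM in WT. The 55 counts in WT make the level in G2APOL1 at least 20.1-fold lower, with 3 counts over the group as the floor (edgeR adjusted p = 0.0407). That call was lost with limma-voom (adjusted p = 0.0968) and without any 1 of the G2APOL1 or WT libraries (adjusted p between 0.0641 and 0.254). As it entered the test only because WT was high, its call is no independent sign of a difference. In G0APOL1 against WT, Lst1 stood at -1.39 ± 1.32 and did not pass.

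Genes of the leukocyte cytoskeleton and oxidase lay below WT in all 4 transgenic libraries without passing the test. Lcp1, the actin-bundling plastin of leukocytes, had 25.1 and 22.6 CPM in G2APOL1 and 20.7 and 25.3 CPM in G0APOL1, against 27.4 and 46.2 CPM in WT. Coro1a, an actin regulator of leukocytes, had 10.7 and 4.17 CPM in G2APOL1 and 9.61 and 4.14 CPM in G0APOL1, against 11.8 and 31.4 CPM in WT. In both genes the nearer WT library was only slightly above the highest transgenic library, and WT replicate 2 stood apart. Lcp1 stood at -0.62 ± 0.29 in G2APOL1 and -0.68 ± 0.29 in G0APOL1, and Coro1a at -1.53 ± 0.59 and -1.64 ± 0.60. Without WT replicate 1 both genes passed in both comparisons (adjusted p between 0.0294 and 0.0412), and Coro1a also did with no low-count filter. Aif1, which encodes the IBA1 protein used to stain macrophages and microglia, had 1.46 and 1.71 CPM in G2APOL1 and 1.07 and 0.71 CPM in G0APOL1, against 2.28 and 7.58 CPM in WT. Cybb, the catalytic subunit of the phagocyte NADPH oxidase, had 4.89 and 3.10 CPM in G2APOL1 and 4.27 and 6.74 CPM in G0APOL1, against 6.84 and 8.79 CPM in WT. Neither passed, with Aif1 at -1.63 ± 0.93 in G2APOL1 and -2.45 ± 0.98 in G0APOL1, and Cybb at -0.96 ± 0.52 in G2APOL1 and -0.51 ± 0.52 in G0APOL1.

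The surface proteins carried by nearly all leukocytes did not pass the test with all 6 libraries. Ptprc, which encodes CD45, had 3.26 and 7.05 CPM in G2APOL1, 2.56 and 5.09 CPM in G0APOL1, and 4.86 and 7.58 CPM in WT. All 3 groups overlapped, and its log2 fold change was -0.27 ± 0.60 in G2APOL1 and -0.70 ± 0.61 in G0APOL1. Cd53, a tetraspanin, had 2.23 and 1.28 CPM in G2APOL1, 1.39 and 0.95 CPM in G0APOL1, and 1.69 and 6.81 CPM in WT. Cd52, a small glycoprotein of lymphocytes and monocytes, had 4.37 and 4.91 CPM in G2APOL1, 5.76 and 2.01 CPM in G0APOL1, and 5.55 and 15.8 CPM in WT. For both genes WT replicate 1 lay near or among the transgenic libraries, and WT replicate 2 was the highest of the 6. Cd53 stood at -1.26 ± 0.97 in G2APOL1 and -1.85 ± 1.00 in G0APOL1, and Cd52 at -1.20 ± 0.61 in G2APOL1 and -1.45 ± 0.62 in G0APOL1. Of the exon bases of Cd52, 14.5% are shared with Crybg2 on the opposite strand, at between 1.496 and 9.12 CPM.

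Lymphocyte genes of the list had few counts, at most 3.74 CPM in any library, and Il7r and Cd79a were highest in WT replicate 2. Cd79a, part of the B cell receptor, had 1.20 and 1.18 CPM in G2APOL1, 2.67 and 0.59 CPM in G0APOL1, and 0.20 and 3.30 CPM in WT, and Ms4a1, which encodes CD20, had counts in G2APOL1 replicate 1 alone (0.34 CPM). Nkg7, a granule protein of NK and cytotoxic T cells, had 0.09 and 0.21 CPM in G2APOL1 and 0.53 and 0 CPM in G0APOL1, against 1.19 and 2.09 CPM in WT. Its 3 counts in G2APOL1 against 31 in WT give a ratio of 0.0883, with a 95% exact interval of 0.0173 to 0.283 that covers counting error only. The fit, which includes the spread between libraries, gave Nkg7 an edgeR adjusted p of 0.364. Il7r, the interleukin 7 receptor of naive T cells and innate lymphoid cells, had 0 counts in both G2APOL1 libraries and 0.53 and 0 CPM in G0APOL1, against 0.79 and 3.74 CPM in WT. Its 42 counts in WT make the level in G2APOL1 at least 15.3-fold lower on the same floor, but Il7r did not pass the low-count filter and most of those counts came from WT replicate 2. DESeq2, run without that filter, called Il7r lower in G2APOL1 against WT. Cd3e and Cd3g, chains of the T cell receptor complex, stood at 1.21 CPM or less in every library, with overlapping groups against WT.

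Between the 2 transgenic groups, 0 of the 27 members passed, where 0.306% of all genes tested were called lower and 0.174% higher in G2APOL1 against G0APOL1. DESeq2 and limma-voom also called 0 members here. An unadjusted p under 0.05 was found for 2 of 27 members, Lyz2 and Lst1, a share near the 6.74% of all genes tested. Lyz2 stood at -0.58 ± 0.26 (edgeR adjusted p = 0.718), and Lst1 was at least 7.47-fold lower by its bound (edgeR adjusted p = 0.441). The median log2 fold change was 0.06, with 12 of 27 below 0. By groups without overlap, 4 members lay lower in G2APOL1 and 4 higher, against 19.5% of all genes lower and 19.7% higher. Those lower were Lyz2, Csf1r, Mrc1 and Lst1, and those higher were Laptm5, Adgre1, Cx3cr1 and Aif1. Neither set passed, and large standard errors, as for Fcgr1 at -0.84 ± 1.99, show how little genes with few counts can resolve.

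**Figure D3:**
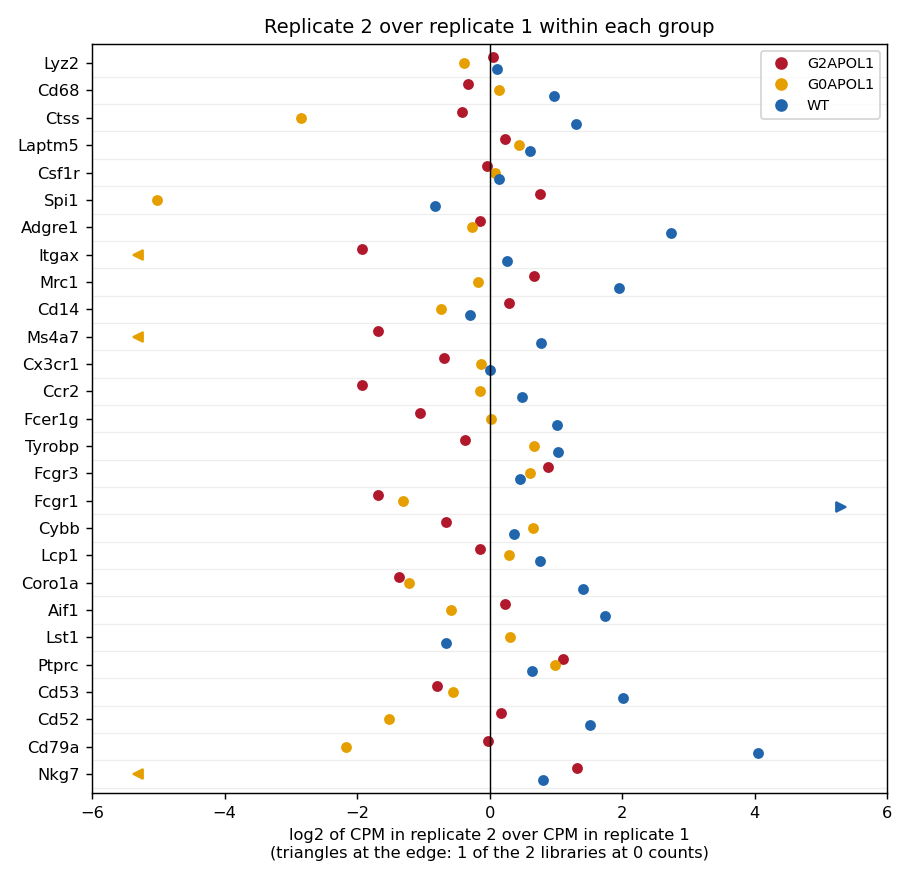
Log2 ratio of replicate 2 over replicate 1 within each group for the 27 leukocyte genes tested, with 1 point per group and triangles at the edge where 1 of the 2 libraries had 0 counts (Lst1 has no G2APOL1 point, with 0 counts in both). WT points lie right of 0 for 24 of 27 genes, while in G2APOL1 and in G0APOL1 10 of 27 do.

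The 2 WT libraries differed from each other in these genes mostly in 1 direction. WT replicate 2 was above WT replicate 1 in 24 of the 27 members tested, with a median log2 difference of 0.752, where 49.3% of all genes were above. In G2APOL1, replicate 2 was above replicate 1 in 10 of 27 members (median -0.135), and in G0APOL1 also in 10 of 27 (median -0.251). WT replicate 2 was the highest of all 6 libraries for 24 of the 34 members. Cd14, Lst1 and Spi1 were the 3 tested members that were lower in WT replicate 2. Members counted as at least 2-fold apart between replicates numbered 9 of 27 in G2APOL1, 9 in G0APOL1 and 11 in WT. By the same rule 14.2% of all genes in G2APOL1, 20.3% in G0APOL1 and 20.5% in WT were as far apart. The rule also counts a gene with 0 counts in both libraries. Lst1 is among the 9 in G2APOL1 for that reason alone. Among the transgenic libraries, G0APOL1 replicate 2 held the lowest value of the 6 for Ctss, Spi1, Cd14, Cx3cr1, Coro1a, Aif1, Cd53 and Cd52. It also had 0 counts of the tested members Itgax, Ms4a7 and Nkg7, while its values of Lcp1, Csf1r and Cybb were not low.

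Beside the members, 218 genes in 22 lists covered other leukocyte genes and other kidney cells. Of 14 other macrophage genes tested, 3 fell in G2APOL1 and 1 rose, and 3 fell in G0APOL1 and 0 rose. Those that fell were the 3 chains of complement C1q, which tissue macrophages secrete. C1qa had 9.86 and 10.5 CPM in G2APOL1 and 7.79 and 12.3 CPM in G0APOL1, against 28.6 and 48.2 CPM in WT. Its log2 fold change was -1.92 ± 0.35 in G2APOL1 and -1.93 ± 0.35 in G0APOL1 (edgeR adjusted p = 0.00506 and 0.00489). C1qb stood at -1.25 in G2APOL1 and -1.40 in G0APOL1, and C1qc at -1.39 in G2APOL1 and -1.49 in G0APOL1, all past the test. Maf, a transcription factor of macrophages and also of other cells, rose by 0.83 in G2APOL1. Of 5 monocyte genes tested, S100a4, a calcium-binding protein found in several cell types, was the 1 that fell, at -3.83 in G2APOL1 and -2.99 in G0APOL1. It had 0.51 and 0.53 CPM in G2APOL1 and 1.17 and 0.71 CPM in G0APOL1, against 5.45 and 9.78 CPM in WT. Of the transgenic libraries only G0APOL1 replicate 1 was over the low-count filter's minimum of 1.05 CPM. S100a4 thus entered the test through WT, and its calls are no independent sign of a difference.

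Of 18 genes of leukocyte signalling and cytoskeleton tested, 0 passed in G2APOL1 (3 had an unadjusted p under 0.05) and 1 fell in G0APOL1. Syk, the kinase downstream of Fcer1g and Tyrobp, had 0.34 and 0.32 CPM in G2APOL1 and 0.53 and 0 CPM in G0APOL1, against 3.77 and 7.25 CPM in WT. Its edgeR adjusted p was 0.0831 in G2APOL1, and it was over the low-count filter's minimum in the WT libraries alone. Of 5 oxidase genes tested, Nox4, the renal oxidase of tubular cells, rose by 1.58 in G2APOL1 and by 1.69 in G0APOL1. Of 11 lysosomal genes of many cell types, Hexa and Lgals3 fell in both comparisons, Ctsl rose in both and Lamp2 rose in G0APOL1, so those that passed lay on both sides. Of 13 chemokine and growth factor genes tested, 0 passed in G2APOL1, where Cxcl16 had the lowest p (-0.71, edgeR adjusted p = 0.135), and 1 fell in G0APOL1, Cxcl14 (-1.12). Of 6 endothelial adhesion molecules tested, 2 fell in G2APOL1 (Vcam1 at -2.13 and Pecam1 at -0.89) and 3 in G0APOL1 (Cd34 at -2.10, Pecam1 at -1.06 and Icam1 at -1.06).

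Defining markers of neutrophils were at or near 0. Of 13 neutrophil genes, 9 had 0 counts in all 6 libraries, S100a8 and Ly6g among them, and the 1 gene tested, Csf3r, did not pass. Of 5 dendritic cell genes tested, only Zbtb46 fell in G2APOL1 (-1.99, edgeR adjusted p = 0.0467), and 3 of the 5 were below 0. In G0APOL1 against WT, 0 of these 5 passed and 2 were below 0. Of 7 other T and NK cell genes tested, 0 passed in either comparison with WT, with Cd247 lowest in p in G2APOL1 (-2.30, edgeR adjusted p = 0.247). Of 5 other B and plasma cell genes tested, 0 passed, with Jchain, the joining chain of secreted antibodies, at 0.50 in G2APOL1 and 0.57 in G0APOL1. This list summed to 768 and 538 CPM in G2APOL1 and 842 and 614 CPM in G0APOL1, against 491 and 915 CPM in WT, most of it from the antibody light chain Igkc. In the mast cell list 1 gene was tested, Kit, which did not pass. In G2APOL1 against G0APOL1, 0 genes of these leukocyte lists passed.

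**Figure D4:**
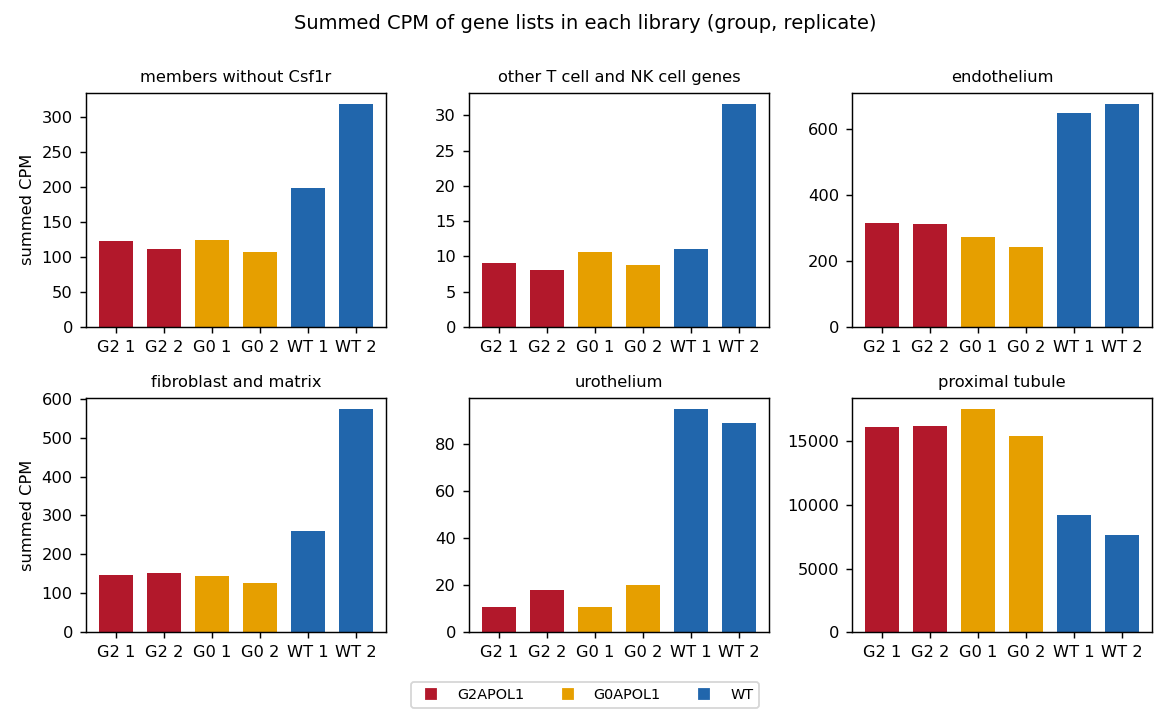
Summed CPM in each library (group and replicate under each bar) of the members without Csf1r and of 5 other lists, on linear axes from 0. The members, endothelium, fibroblast and urothelium sums are lower in all 4 transgenic libraries than in both WT libraries, and the proximal tubule sum is higher. The T and NK cell sum is also lower, but only slightly against WT replicate 1 (at most 10.7 CPM against 11.1 CPM).

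Several lists of markers of other kidney cells differed between the same groups as the leukocyte genes. Endothelial markers summed to 317 and 313 CPM in G2APOL1 and 274 and 243 CPM in G0APOL1, against 650 and 676 CPM in WT, and 7 of 8 fell in each comparison with WT. Fibroblast and matrix markers summed to 146 and 152 CPM in G2APOL1 and 143 and 125 CPM in G0APOL1, against 261 and 574 CPM in WT, with 4 and 5 of 8 lower. This list shared with the leukocyte genes the high value of WT replicate 2. Urothelial markers, from the lining of the renal pelvis, summed to 10.8 and 17.7 CPM in G2APOL1 and 10.6 and 20.1 CPM in G0APOL1, against 94.7 and 89.0 CPM in WT. In each comparison with WT, 3 of these 6 fell. Red cell genes summed to 914 and 669 CPM in G2APOL1 and 1002 and 1074 CPM in G0APOL1, against 2181 and 1617 CPM in WT. Among these 6 genes, 3 fell in G2APOL1 and 2 in G0APOL1. Proximal tubule markers went the other way, at 16107 and 16173 CPM in G2APOL1 and 17534 and 15438 CPM in G0APOL1, against 9204 and 7622 CPM in WT, with 9 of 10 higher in each. Collecting duct markers summed to 801 and 805 CPM in G2APOL1 and 867 and 566 CPM in G0APOL1, against 2426 and 1622 CPM in WT, with 3 of 6 lower in each. Podocyte markers overlapped between groups, at 139 and 129 CPM in G2APOL1 and 116 and 82.1 CPM in G0APOL1, against 109 and 153 CPM in WT, and 0 of 5 passed by edgeR in either comparison (0 in G2APOL1 and 1 in G0APOL1 at an unadjusted p under 0.05). Thick ascending limb markers summed to 3216 and 3484 CPM in G2APOL1 and 4344 and 4446 CPM in G0APOL1, against 3427 and 3540 CPM in WT, with 0 of 5 passing in G2APOL1 and 1 higher in G0APOL1. Adipocyte markers differed within G2APOL1, at 27.9 and 237 CPM in G2APOL1 and 27.01 and 24.6 CPM in G0APOL1, against 121 and 114 CPM in WT. Fabp4 alone made up most of this sum in every library but G2APOL1 replicate 2, with 96.4 and 114 CPM in WT. With 4 adipocyte markers tested, 0 passed in G2APOL1, and 1, Fabp4, fell in G0APOL1. Adipoq had 0 and 15.5 CPM in G2APOL1 and 0 CPM in both G0APOL1 libraries, against 3.77 and 0 CPM in WT. Lymph node stroma genes summed to 18.9 and 13.03 CPM in G2APOL1 and 19.9 and 21.3 CPM in G0APOL1, against 20.9 and 39.7 CPM in WT. With 3 of them tested, 1 fell in G2APOL1 and 0 in G0APOL1. The part of these shifts in the leukocyte results was not tested.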

How the data were processed

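RNA came from 10 mg of frozen kidney per library, with Illumina libraries made by a NEBNext kit, per the labels' protocols. The deposited table holds expected counts per gene made by the authors, with 1 column per library and no scaling. The submitters' processing notes name mm10 and Cell Ranger ARC 2.0.2 without a role, and neither source names the aligner or the counter. Of 54146 identifiers, 54079 matched GENCODE M21 (GRCm38) without version.

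Expected counts were rounded, filtered with filterByExpr by group (14386 genes left), scaled with TMM and fitted in 1 model of all 6 libraries with edgeR 4.0.16 in R 4.3.3 (glmQLFit, robust, 3 residual degrees of freedom). Tests were two-sided quasi-likelihood F tests, with Benjamini-Hochberg adjustment over all genes tested and a threshold of 0.05. Each SE is the log2 fold change divided by the square root of F. No error rate of the procedure from simulated data is given here. Floors of 3 counts and exact intervals cover counting error only. Alternatives used DESeq2 1.42.0, limma 3.58.1, other scalings and filters, fits of 4 libraries, a replicate block, no mitochondrial genes, each library left out, and counts summed over near-identical copies (minimap2 2.31, at least 95% identity over 50% of the length).

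All 34 genes are given. From the other leukocyte lists, genes called are named (at most 3 per list and comparison), or the gene with the lowest p. For other cell types counts and sums are given, with Fabp4 and Adipoq named in addition. A gene of the leukocyte signalling list called in G0APOL1 is not reported here by name. The members and lists were chosen with earlier results of these data known.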

Additional observations from a re-analysis of the deposited data

How the results depend on the processing

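Of the 6 member values called against WT, 1 kept its call in every alternative run (Lyz2 in G2APOL1, between -1.83 and -1.95) and 5 lost it in at least 1; 0 changed sign. Of the 81 values for 27 members in 3 comparisons, 68 were not called in any setting, and 31 of the uncalled changed sign at least once. In G2APOL1 against WT, DESeq2 called 5 members (Il7r in addition), and 5 were called with no low-count filter (Coro1a in addition). The number of members called in G2APOL1 against WT was 4, 2 with limma-voom, and 1 to 4 with each library left out. In G0APOL1 against WT it was 2, 5 with no low-count filter, and 0 (without G0APOL1 replicate 2) to 6 (without WT replicate 1) with each library left out. Over all genes, 1178 passed in G2APOL1 against WT (1806 with no filter, 338 to 1835 leaving out a library), 1175 in G0APOL1 against WT (658 in a fit of 4 libraries, 599 to 1721 leaving out a library) and 69 in G2APOL1 against G0APOL1 (245 with no filter, 135 with DESeq2, 119 in a fit of 4 libraries, 27 to 150 leaving out a library).

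The labels give no pairing behind the replicate numbers, and the deviations of same-numbered libraries correlated at 0.058 (G2APOL1 and WT), 0.096 (G0APOL1 and WT) and 0.043 (G2APOL1 and G0APOL1). With the replicate block the counts over all genes were 1724, 1618 and 120, and the members called were 4, 2 and 0. With 2 libraries per group and 3 residual degrees of freedom, members at a few counts could not be resolved, as the wide standard errors of Fcgr1 and Nkg7 show.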

Other observations

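A few leukocyte genes outside the members, chosen after their values were seen, were high in WT replicate 2 alone. Ighm, the heavy chain of IgM, had 5.57 and 6.20 CPM in G2APOL1 and 3.95 and 3.19 CPM in G0APOL1, against 2.58 and 245 CPM in WT. Igkc, the kappa light chain, did not share this and had 591 and 417 CPM in G2APOL1 and 667 and 485 CPM in G0APOL1, against 401 and 552 CPM in WT. Ccl22, a chemokine of dendritic cells, had 0.43 and 0.21 CPM in G2APOL1 and 0 CPM in both G0APOL1 libraries, against 0 and 3.85 CPM in WT. Cd4, the co-receptor of helper T cells, had 0.69 and 0 CPM in G2APOL1 and 1.07 and 0 CPM in G0APOL1, against 0.60 and 5.603 CPM in WT.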
